A study of Arabidopsis thaliana with 72 samples.

Results

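The 7 genes described here encode enzymes of protein ubiquitination in Arabidopsis: the U-box ligases PUB19 (AT1G60190), PUB25 (AT3G19380) and PUB43 (AT1G76390), and the ubiquitin-conjugating enzymes UBC16 (AT1G75440), UBC18 (AT5G42990), UBC30 (AT5G56150) and UBC32 (AT3G17000). They were chosen by gene symbol, and each is represented by a single probe set, so they are 7 of the 22746 probe sets on the array that are not controls. All 7 passed the filter on dim signals, and all 7 passed the threshold of the test (an adjusted p of 0.05) after 3 h of abscisic acid. The values under abscisic acid therefore chose the genes and are given below as a description, with no test.

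Transcript levels were measured on 72 Affymetrix ATH1 arrays of whole seedlings, 7 days old and grown at 22 °C, in 36 groups of 2 arrays. Wild-type Col-0 seedlings received a mock treatment, 1 µM indole-3-acetic acid (IAA, an auxin), 1 µM zeatin (a cytokinin), 1 µM gibberellin A3 (GA3), 10 µM abscisic acid (ABA), 10 µM methyl jasmonate (MJ), 10 µM ACC (the precursor of ethylene) or 10 nM brassinolide (BL, a brassinosteroid). Seedlings of ga1-5, a mutant impaired in gibberellin synthesis, received a mock treatment or 1 µM GA3, and seedlings of det2-1, impaired in brassinosteroid synthesis, received a mock treatment or 10 nM BL. Each treatment lasted 30 min, 1 h or 3 h. Whether the paired arrays come from separate cultures is not given in the labels, and the p-values then reflect only array-to-array spread, part of which may be technical. Each genotype and time forms a set of its own in the labels, so that neither genotype nor time can be told apart from set.

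Ubiquitin is passed from an activating enzyme to a conjugating enzyme (E2), and from there, with the help of a ligase (E3), to a lysine of the target protein. U-box ligases bind the charged E2 through the U-box and the target through another region, often armadillo repeats, and chains of ubiquitin can send the target to the proteasome. In plants this system removes regulators of hormone responses, and several U-box ligases are known from drought and ABA responses, in which PUB19 acts as a negative regulator. UBC32 is an E2 of the endoplasmic reticulum membrane that takes part in the removal of misfolded proteins, and UBC30 belongs to the same group of E2 enzymes as UBC28 and UBC29.

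Arrays were compared after scaling to a common trimmed mean. Before scaling, that mean was 865 to 1164 for Col-0 arrays and 1827 to 2970 for arrays of both mutants. Correlations between the 2 arrays of a group were 0.935 to 0.979. The ratio of 3' to 5' GAPDH signal, a measure of RNA quality, was 0.502 to 1.48 over all arrays. At 3 h it was 1.11 to 1.28 in ABA and 1.29 on both Col-0 mock arrays. At 30 min it was 1.04 and 1.07 in ABA, against 1.48 and 1.22 in mock. At 1 h mock gave 1.35 and 1.26. ABA (1.08 and 0.999), MJ (0.928 and 1.07) and BL (0.822 and 0.977) lay below that. IAA (1.28 and 1.35) and zeatin (1.29 and 1.28) at 1 h overlapped mock. The ratio also differed between Col-0 and the mutants, as given with those results. Its part in the hormone values was not tested. Both organs were present: the root markers PYK10, EXPA7 and EXPA18 and the leaf marker LHCB4.1 were brighter than 40% of the probe sets on all 72 arrays, and the leaf marker RCA did so on 69. PUB19 and PUB25 were dim, and reached that brightness on 13 and 12 arrays, whereas the other 5 genes reached it on all 72.

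Among the ligases, PUB19 was the gene with the largest difference under ABA. Its scaled signal was 160 and 200 on the Col-0 mock arrays at 3 h and 11510 and 13219 on the ABA arrays. It was already 1308 and 786 after 30 min of ABA, where mock gave 121 and 215, and 5219 and 2593 after 1 h, where mock gave 28 and 63. The ABA arrays lay above the mock arrays at each time. On the log2(signal + 55) scale, on which all changes here are given and which understates changes of dim genes, the difference was 4.91-fold at 30 min, and it was 5.24 at 1 h and 5.73 at 3 h (SE 0.49 each), or 37.8- and 52.9-fold. The mock arrays at 1 h were low, and against the Col-0 mock arrays of all 3 times the change of PUB19 at 1 h was 4.45 (SE 0.40), or 21.8-fold. In whole seedlings, more cells of a type and more RNA per cell cannot be told apart. Outside ABA, PUB19 stayed between 28 and 399 on the 42 other Col-0 arrays. The 3 ABA groups were the 3 highest of the 36 group means, each clear of the next beyond their spread, and the lowest was Col-0 mock at 1 h.

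PUB43 and PUB25 showed smaller differences, and only at 3 h for PUB43. PUB43 gave 1223 and 1150 in ABA at 3 h against 557 and 612 in mock, a log2 change of 0.96 (SE 0.17). At 30 min and 1 h its ABA and mock arrays overlapped, with changes of -0.07 and 0.07. PUB25 gave 430 and 327 in ABA at 3 h against 236 and 129 in mock, a log2 change of 0.90 (SE 0.32). Its changes at the earlier times were 0.55 and 0.24, and its arrays at 30 min ranged from 193 to 444 in ABA, overlapping the mock arrays.

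Of the conjugating enzymes, UBC32 had the largest difference, and it came late. Its scaled signal was 9808 and 9844 in ABA at 3 h against 1444 and 1349 in mock, a log2 change of 2.77 (SE 0.15) or 6.81-fold. At 30 min and 1 h the changes were 0.30 and 0.40, with the ABA arrays above the mock arrays at both times. These early values were not particular to ABA. Arrays of BL (0.30 and 0.28), ACC (0.24 and 0.22), MJ (0.20 and 0.19) and IAA (0.13 and 0.42) also lay above the same mock arrays at both times. None of those passed. Zeatin arrays overlapped mock at both times, and GA3 arrays at 30 min. Below ABA at 3 h, no neighbouring group means of UBC32 in the order of the 36 differed beyond their spread. The 42 Col-0 arrays without ABA lay between 1157 and 1803, and the 24 mutant arrays between 1000 and 1524.

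The other E2 genes differed less. UBC30 gave 4563 and 5153 in ABA at 3 h against 2882 and 2972 in mock (log2 change 0.72, SE 0.14), with changes of -0.09 and 0 before. UBC18 gave 3086 and 3620 against 2358 and 2055 (0.59, SE 0.20), with changes of 0.03 and 0.14 before. UBC16 was level with mock at 30 min (-0.02) and stood at 1180 and 1274 after 1 h of ABA against 739 and 944 in mock (0.52, SE 0.16) and at 1209 and 1252 against 950 and 811 after 3 h (0.46). The ABA and mock arrays of these 3 genes did not overlap at 3 h, which their choice by this contrast favoured. The share of all probe sets without overlap was not counted.

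**Figure D1:**
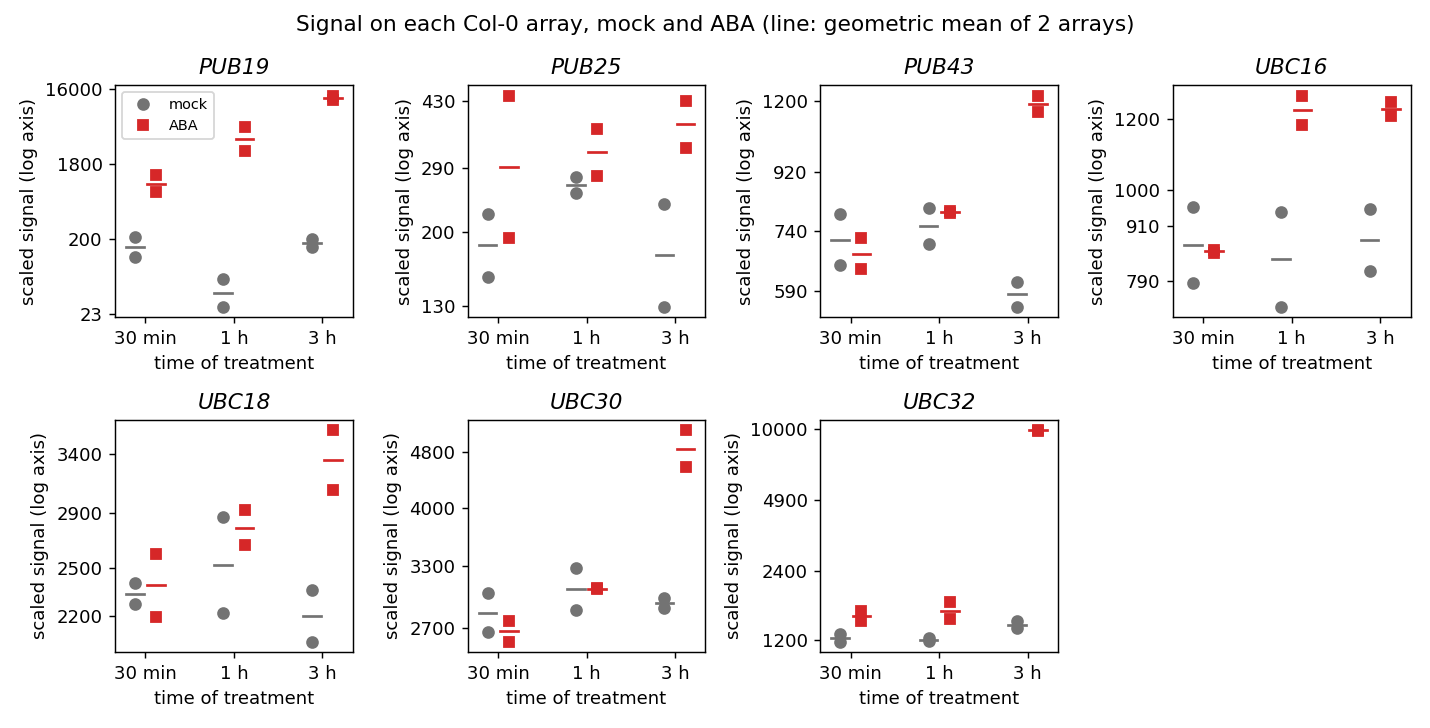
Scaled signal of the 7 genes on each Col-0 array under mock treatment (grey circles) and 10 µM ABA (red squares) at 30 min, 1 h and 3 h, on log axes that differ between panels; points are arrays and lines the geometric mean of 2. PUB19 lies above mock at all 3 times, and UBC32 reaches 9808 and 9844 at 3 h. At 3 h the ABA arrays lie above the mock arrays for all 7 genes, but the genes were chosen by this contrast. The share of all probe sets that separate in this way was not counted.

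At 3 h of ABA, 26.9% of the 17262 probe sets tested passed the threshold and 10.1% passed it as rises, and the 7 genes did so because the choice required it. The median log2 change of the 7 was 0.90 and that of all tested probe sets was -0.16. The values nearest to the threshold among the chosen genes were those of PUB25 (0.90), UBC18 (0.59) and UBC16 (0.46). Just outside it lay UBC19 (0.40), UBC20 (-0.34) and UBC29 (0.42), and PUB26, the closest relative of PUB25, had a change of 0.76 with an SE of 0.56. Among the other PUB genes tested, PUB22, PUB23 and PUB24, which act in immunity and, for PUB22 and PUB23, in drought responses, had changes of 0.15, -0.38 and -0.26 at 3 h. PUB24 rose at 30 min of ABA by 1.22 (SE 0.27, limma adjusted p = 0.0208), when 0.313% of all probe sets passed.

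Genes outside the 2 families were also followed under ABA. Their lists were chosen with earlier results of these data known, so their p-values are no independent check of the treatment. All 4 dehydration genes tested rose at 3 h of ABA by limma's test, among them LEA4-5, which encodes a late embryogenesis abundant protein, by 6.96 (SE 0.63, adjusted p = 6.52e-12), COR15A by 5.63 (SE 0.47, adjusted p = 6.43e-13) and COR15B by 2.97 (SE 0.39, adjusted p = 5.93e-08). COR15A and COR15B encode chloroplast proteins induced by cold and ABA. XERICO, a RING-type protein tied to ABA levels, had a change of -0.29 (adjusted p = 0.233), and OS9, a lectin of degradation at the endoplasmic reticulum, of -0.06 (adjusted p = 0.864). These were the only genes of their lists with a tested and named probe set, and the lists of ABA receptors, phosphatases and kinases and of ubiquitin genes had none.

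Every Col-0 comparison at a given time used the same 2 mock arrays as the ABA comparison. The mutants were compared with the Col-0 mock arrays of all 3 times. Col-0 results at 3 h and over the time course, and comparisons of mutants with Col-0, are therefore not independent of how the genes were chosen. Low Col-0 mock arrays at 3 h would have favoured both the choice and rises in these comparisons. Across the 8 other treatments of Col-0 and the mutants and their 3 times, 168 values were tested for the 7 genes, of which 7 passed the threshold as rises and 1 as a fall. Over the same 24 comparisons 1.28% of the values of all probe sets passed. UBC30 and UBC32 had none, with changes of -0.36 to 0.10 and of -0.16 to 0.42 over 24 comparisons each.

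**Figure D2:**
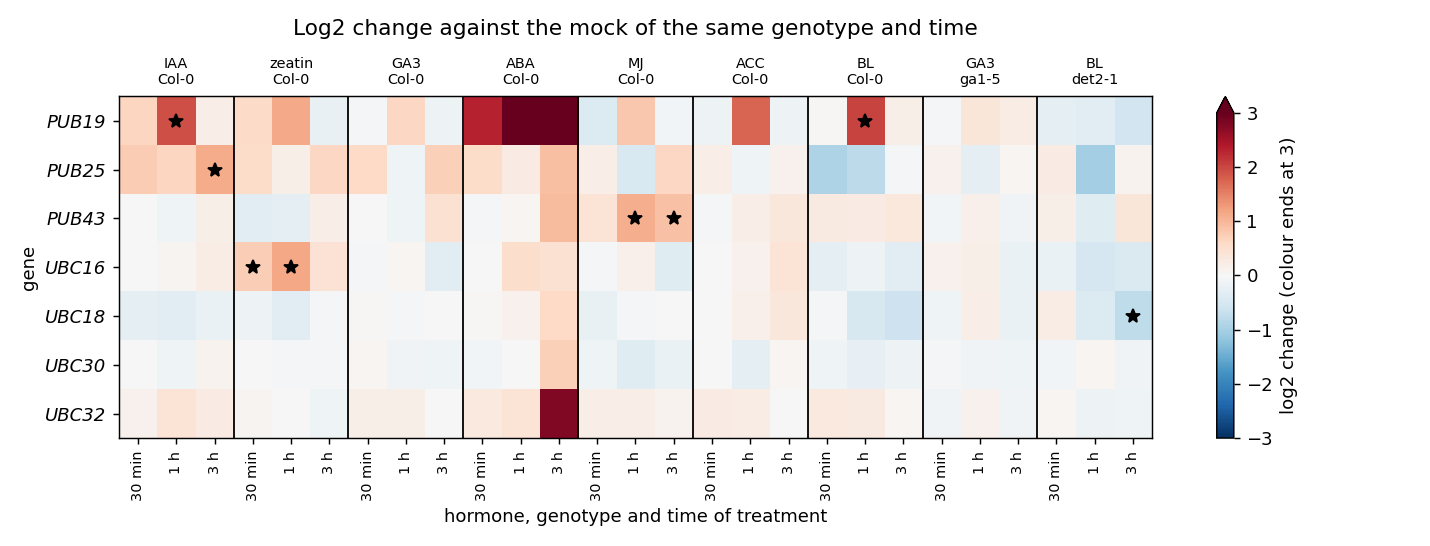
Log2 change of each of the 7 genes (rows) against the mock of the same genotype and time, for 9 hormone treatments at 30 min, 1 h and 3 h (columns). Red is higher and blue lower, and colour ends at 3. Stars mark values past the adjusted p threshold of 0.05 and are left off for ABA, whose values chose the genes. Stars stand at zeatin for UBC16, at MJ for PUB43, at IAA for PUB19 and PUB25, and at BL for PUB19 and, in det2-1, for UBC18.

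UBC16 responded to zeatin, and this was the largest level it reached. Its signal was 1460 and 1516 after 30 min, 1843 and 2026 after 1 h and 1296 and 1115 after 3 h, against 955 and 786, 739 and 944, and 950 and 811 in mock. The zeatin arrays lay above the mock arrays at each time. The log2 changes were 0.74 at 30 min (SE 0.16, limma adjusted p = 0.028) and 1.16 at 1 h (SE 0.16, adjusted p = 1.6e-05), and 0.43 at 3 h did not pass (adjusted p = 0.248). Of the 17262 probe sets, 0.168% passed at 30 min and 0.434% at 1 h. Over the 3 times together UBC16 was the only 1 of the 7 to pass limma's moderated F (adjusted p = 6.9e-07), when 1.37% of all probe sets did. When each of the 4 arrays was left out in turn, the UBC16 call at 30 min failed every time (adjusted p = 0.0624 to 0.699) and that at 1 h passed every time. The zeatin groups at 1 h and 30 min were the highest of its 36 group means, ahead of both ABA groups at 1 h and 3 h, whose levels did not differ beyond their spread.

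PUB43 responded to methyl jasmonate. Its signal was 1089 and 880 at 30 min, 1837 and 1489 at 1 h and 1229 and 1017 at 3 h, against 650 and 788, 705 and 806, and 557 and 612 in mock. The MJ arrays lay above the mock arrays at each time. The log2 changes were 0.42 at 30 min (adjusted p = 0.354), 1.08 at 1 h (SE 0.17, limma adjusted p = 1.01e-05) and 0.88 at 3 h (SE 0.17, adjusted p = 0.000258). Of all probe sets 5.53% passed at 1 h and 7.83% at 3 h. Over the time course PUB43 was the only 1 of the 7 to pass (adjusted p = 1.4e-07), with 9.68% of all probe sets. Both calls passed without any 1 of their arrays. The mock arrays of PUB43 at 3 h, 557 and 612, were below those of the earlier times. The MJ group at 1 h was the highest of its 36 group means, and ABA and MJ at 3 h, next in order, did not differ beyond their spread.

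PUB25 was higher under IAA. Its signal was 413 and 306 at 30 min, 433 and 447 at 1 h and 372 and 527 at 3 h, against 154 and 222, 251 and 275, and 236 and 129 in mock. The IAA arrays lay above the mock arrays at each time. The log2 changes were 0.77 and 0.64 at 30 min and 1 h, which did not pass (adjusted p = 1 and 0.742), and 1.11 at 3 h (SE 0.32, limma adjusted p = 0.0429), when 3.58% of all probe sets passed. Over the time course PUB25 was the only 1 of the 7 to pass (adjusted p = 0.0231), with 3.05% of all probe sets. With the replicate number as a block, 2 of the 7 passed. With quantile normalization or only the sets used, none passed, and the call of PUB25 over the time course was lost on leaving out 4 of the 12 arrays in turn (adjusted p = 0.0177 to 0.182). The call of PUB25 at 3 h was lost on leaving out each of 3 of its 4 arrays, with changes of 0.78 to 1.44 and adjusted p of 0.0366 to 0.48. Zeatin arrays of PUB25 also lay above the same mock arrays at each time (changes of 0.56, 0.17 and 0.61). GA3 arrays did so at 30 min and 3 h (0.59 and 0.71) and MJ arrays at 3 h (0.61). BL arrays lay below mock at 30 min and 1 h (-0.92 and -0.78), and none of these passed. The mock arrays at 3 h include the lowest of the 6 Col-0 mock arrays of PUB25, 129. Of the other PUB genes, PUB23 rose at 30 min of IAA by 1.53 (SE 0.24, adjusted p = 0.000119), when 0.481% of all probe sets passed and none of the 7 genes did.

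PUB19 passed the test at 1 h under both IAA and BL, and both values rest on low mock arrays. Its signal was 286 and 359 under IAA and 306 and 399 under BL, against 28 and 63 on the mock arrays at 1 h. That mock group had the lowest mean of the 36, while the mock arrays at 30 min and 3 h gave 121 to 215. The changes were 1.93 under IAA (SE 0.49, limma adjusted p = 0.0396) and 2.03 under BL (SE 0.49, adjusted p = 0.0285), when 0.823% and 0.973% of all probe sets passed. Against the Col-0 mock arrays of all 3 times, an alternative chosen after these low signals were seen, the changes of PUB19 were 1.13 (adjusted p = 0.242) and 1.24 (adjusted p = 0.086), so that neither passed. Leaving out each of the 4 arrays in turn ended both calls of PUB19 in every case, with adjusted p of 0.119 to 0.392 under IAA and 0.0768 to 0.152 under BL. Under ACC at 1 h, against the same mock arrays, PUB19 gave 219 and 349, a change of 1.75 (adjusted p = 0.153).

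**Figure D3:**
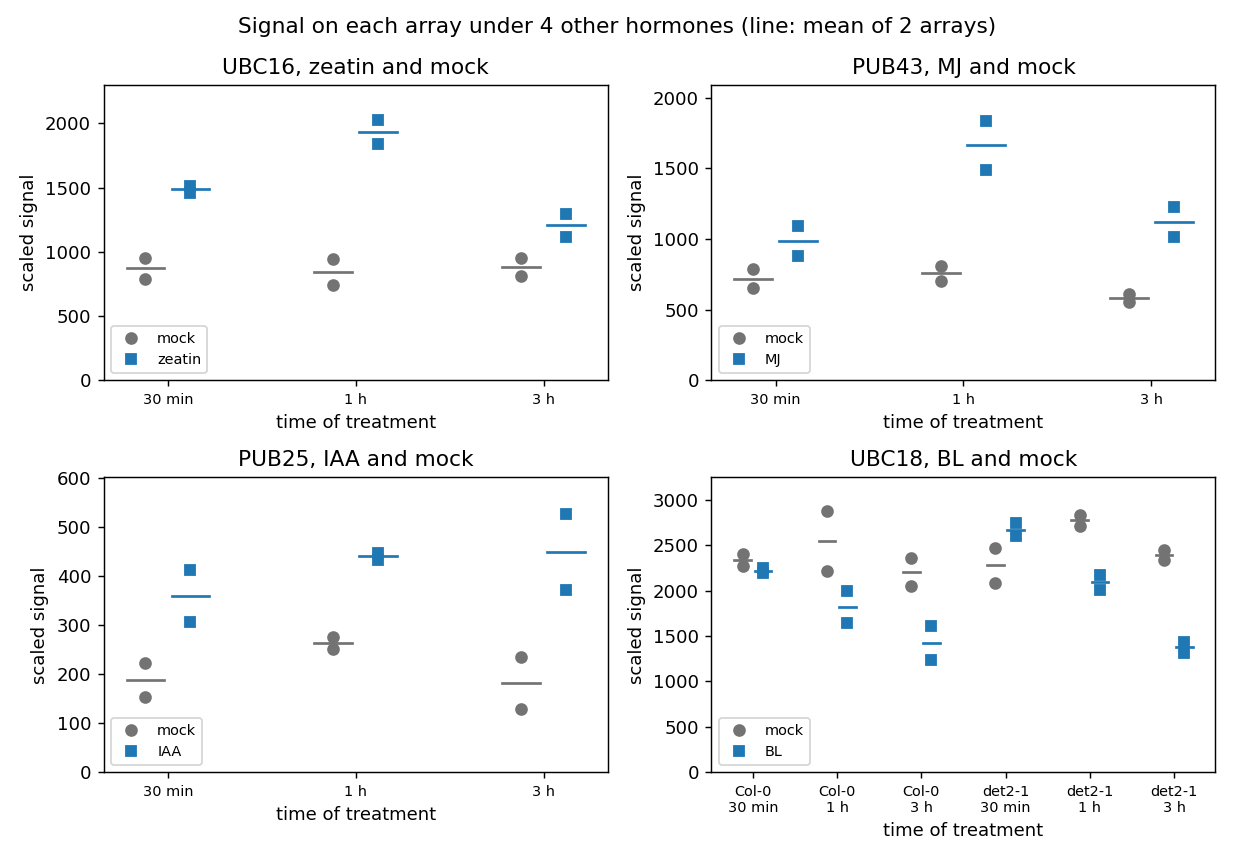
Scaled signal on each array for UBC16 under zeatin, PUB43 under MJ, PUB25 under IAA (Col-0) and UBC18 under BL (Col-0 and det2-1), with mock arrays as grey circles, hormone arrays as blue squares and lines for the mean of 2 arrays; axes start at 0. Zeatin, MJ and IAA arrays lie above mock at all 3 times, and UBC18 lies below mock under BL at 1 h and 3 h in both genotypes.

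In det2-1 seedlings, the E2 gene UBC18 was lower than mock at 3 h of BL, and UBC16 passed only over the time course. UBC18 gave 1440 and 1310 at 3 h of BL against 2334 and 2445 in det2-1 mock, a log2 change of -0.77 (SE 0.20, limma adjusted p = 0.0145), when 4.47% of all probe sets passed. At 30 min and 1 h its changes were 0.23 and -0.40, neither of which passed. UBC16 was below mock at each time, with changes of -0.20, -0.50 and -0.43, none of which passed alone. Over the time course these were the 2 of the 7 that passed (adjusted p = 0.0352 for UBC18 and 0.046 for UBC16), with 3.16% of all probe sets. The calls were lost on leaving out 7 of the 12 arrays in turn for UBC18 (adjusted p = 0.0315 to 0.238) and 11 of 12 for UBC16 (adjusted p = 0.0454 to 0.184), and that of UBC18 at 3 h on leaving out each of 4 arrays (adjusted p = 0.0585 to 0.162). The leaf marker RCA was also lower under BL in det2-1, with changes of -4.18 at 30 min (adjusted p = 0.00338) and -2.39 at 3 h (adjusted p = 0.029), while LHCB4.1, the other leaf marker, changed by -0.41 and -0.22 and did not pass. The GAPDH ratio was 0.745 to 1.03 under BL and 0.585 to 0.937 in mock. The part of these markers and of RNA quality was not tested.

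In Col-0, UBC18 gave 1614 and 1240 at 3 h of BL against 2358 and 2055 in mock, a log2 change of -0.62 (SE 0.20), which did not pass (adjusted p = 0.138). None of the 7 genes passed over the time course of BL in Col-0 by limma's moderated F, although 2 did with array medians subtracted and 1 with quantile normalization. With scaling to the trimmed mean, 4 had an unadjusted p under 0.05 (PUB19, PUB25, UBC16 and UBC18) and 3.66% of all probe sets passed. The difference between det2-1 and Col-0 in the response to BL passed for none of the 7 either, with 1 (PUB19) at an unadjusted p under 0.05 and 0.0869% of all probe sets called. For UBC18 at 3 h that difference was -0.16 (SE 0.29).

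GA3 and ACC gave no calls among the 7 genes over the time course by limma's moderated F. For GA3, in Col-0 and in ga1-5, none had an unadjusted p under 0.05 either, and few probe sets passed at all, 0.0232% in Col-0 and 0.127% in ga1-5. Outside the 7, XERICO fell under GA3 by limma's moderated t. Its changes were -0.91 at 3 h in Col-0 (adjusted p = 0.0114), and -1.06 at 1 h and -1.13 at 3 h in ga1-5 (adjusted p = 0.00119 and 0.000182). The difference between ga1-5 and Col-0 in the response to GA3 passed for none of the 7, none had an unadjusted p under 0.05, and 0% of all probe sets passed. For ACC, PUB19 alone had an unadjusted p under 0.05, and 1.15% of all probe sets passed. Between 30 min and 3 h of mock treatment in Col-0 none of the 7 passed, none had an unadjusted p under 0.05, and 0% of all probe sets passed.

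Between untreated genotypes, UBC18 had the clearest difference. Its signal was 888 to 1055 on the 6 ga1-5 mock arrays (median 947) and 2055 to 2872 on the 6 Col-0 mock arrays (median 2316), so the groups did not overlap. The log2 change was -1.25 (SE 0.12, limma adjusted p = 6.73e-12), and the 6 ga1-5 arrays under GA3 lay at 674 to 1178. UBC16 was also lower in ga1-5, at 561 to 768 against 739 to 955 (log2 change -0.31, SE 0.09, adjusted p = 0.006), and PUB19 was higher, at 120 to 292 against 28 to 215 (0.72, SE 0.28, adjusted p = 0.0377). These 3 of 7 compare with 42.3% of all probe sets that passed in ga1-5. Leaving out each of the 12 mock arrays in turn gave changes of -1.31 to -1.19 for UBC18 and of -0.37 to -0.25 for UBC16. The values of PUB19 by time were 0.55 at 30 min, 1.32 at 1 h, against the low Col-0 mock arrays, and 0.28 at 3 h. From the arrays of 30 min and 3 h alone, an alternative chosen after the low arrays were seen, the change of PUB19 was 0.41 (adjusted p = 0.387) and did not pass. The call of PUB19 was also lost on leaving out 8 of the 12 arrays in turn (adjusted p = 0.0179 to 0.146).

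In det2-1, PUB19 was the only 1 of the 7 to pass, when 27.1% of all probe sets did. It lay between 220 and 354 on the 6 mock arrays (median 284), above the 28 to 215 of Col-0 (median 140), a log2 change of 0.95 (SE 0.28, limma adjusted p = 0.00985). By time the change of PUB19 was 0.82, 1.63 and 0.40. From the arrays of 30 min and 3 h alone, the alternative chosen after the low arrays were seen, it was 0.61 (adjusted p = 0.223) and did not pass. Leaving out each of the 12 mock arrays in turn gave changes of 0.85 to 1.05 for PUB19. UBC18 did not follow the pattern of ga1-5 there, with 2086 to 2837 and a change of 0.07 (adjusted p = 0.708). The 2 genotypes' differences from Col-0 share the Col-0 mock arrays and were not set against each other by a test.

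The deposited arrays of the mutants were brighter throughout, and these values depend on the scaling. Without scaling, the median change of all probe sets was 1.23 in ga1-5 and 1.05 in det2-1, against 0.05 and 0.04 with it. UBC18 in ga1-5 then had a change of -0.02, and UBC16 one of 0.90, the other direction. After scaling, both leaf markers and 1 of the 3 root markers were lower in each mutant. In ga1-5, RCA changed by -1.32, LHCB4.1 by -1.18 and PYK10, a root beta-glucosidase, by -1.60, and the other root markers EXPA7 and EXPA18, which encode expansins, by -0.56 and -0.15, which did not pass. In det2-1 the values were -2.15, -1.15 and -1.05, and -0.03 and -0.51 for the expansins, which did not pass. The GAPDH ratio was also higher on Col-0 mock arrays, at 1.22 to 1.48, without overlap with either mutant. It was 0.601 to 0.902 in ga1-5 and 0.585 to 0.937 in det2-1, which overlapped each other. The part of these markers and of RNA quality in the values of the 7 genes was not tested. Among the other E2 genes, UBC28 was lower in both, with changes of -0.75 in ga1-5 (adjusted p = 2.21e-06) and -0.66 in det2-1 (adjusted p = 5.74e-05), and PUB22 was higher in ga1-5 by 0.77 (adjusted p = 7.43e-05).

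**Figure D4:**
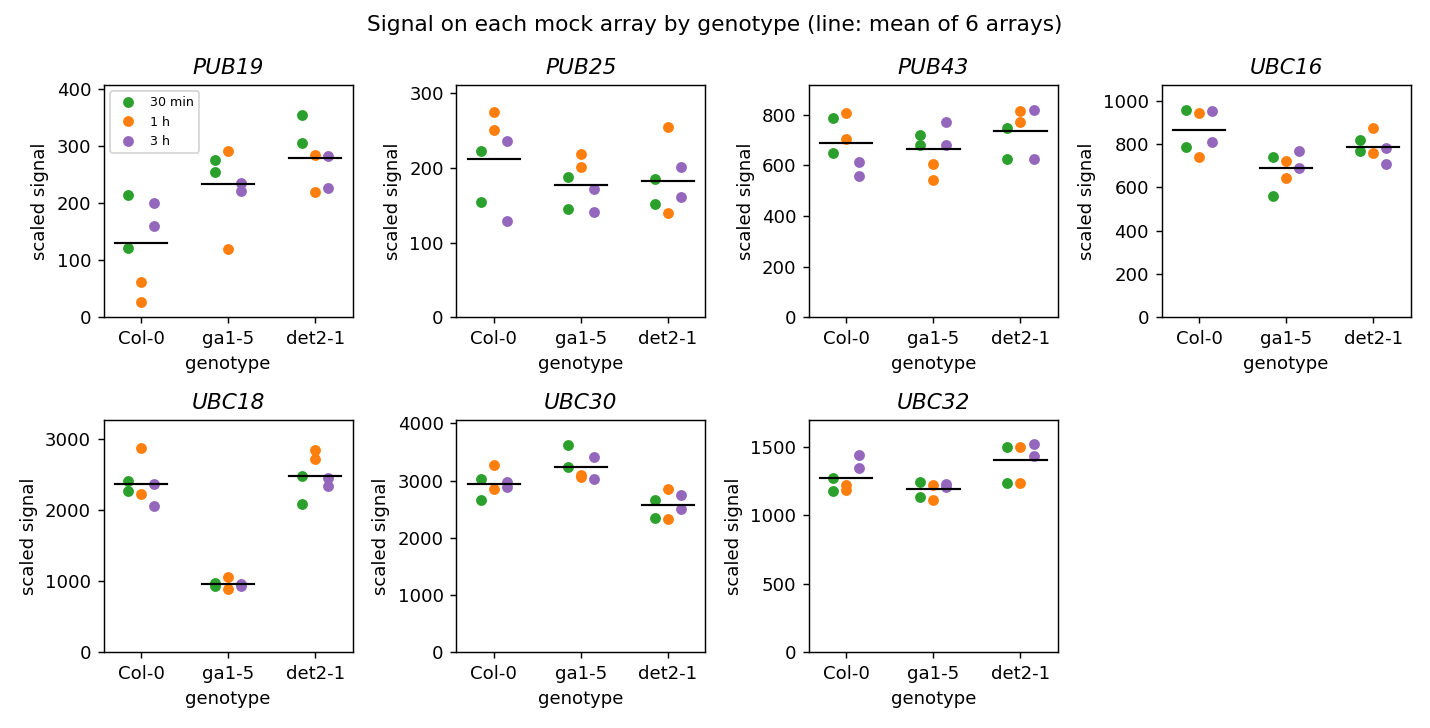
Scaled signal of the 7 genes on each of the 6 mock arrays of Col-0, ga1-5 and det2-1, coloured by time, with a line for the mean of 6; axes start at 0 and differ between panels. UBC18 lies at 888 to 1055 in ga1-5, below all arrays of the other genotypes, and PUB19 in det2-1 lies above all Col-0 arrays.

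The patterns of the 7 genes over the 36 group means were not alike. The highest Pearson correlation between any of them was that of PUB19 and UBC32 (r = 0.77), whose highest group is ABA at 3 h, and that of UBC30 and UBC32 was 0.597. PUB43 had r of -0.119 with UBC30 and -0.0893 with UBC16. These are descriptions over 36 group means that share ABA, set and scaling.

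For each gene, the probe sets naming another gene with the most similar pattern were taken from 9615 candidates. For UBC32 they were AT1G04830, AT5G01300 and AT3G51000 (r = 0.939, 0.939 and 0.933), and for UBC18 they were BGLU44, AT3G11930 and AT1G28150 (r = 0.921, 0.92 and 0.915). For PUB19 they were AT1G48100, AT1G73390 and AT3G46450 (r = 0.888, 0.879 and 0.872), and for UBC30 AT1G55760, AT3G15670 and AT1G14730 (r = 0.886, 0.852 and 0.845). The nearest patterns were less similar for PUB43 (AT1G69360, r = 0.805), UBC16 (AT1G58170, r = 0.718) and PUB25 (AT3G06330, r = 0.703). High values of r can rest on a few groups. The log2 mean of UBC32 was 13.27 in ABA at 3 h and 10.18 to 10.74 in all other groups. That of UBC18 was 9.76 to 10.20 in the ga1-5 groups and 10.48 or more elsewhere. For PUB19, UBC30 and UBC32 the highest group is ABA at 3 h, which chose the genes.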

How the data were processed

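The deposited values are linear signal intensities of 72 ATH1 arrays, 1 per probe set, made by the authors with MAS5, per the submitters' processing notes; its settings are not given in the sources used here. The 64 control probe sets were left out before the scaling target, filter and pseudocount were set, a choice made after a first fit with them had been seen. Each array was scaled to a 2% trimmed mean of 1156, and log2(signal + 55) was taken, where 55 is 10% of the median deposited signal. Testing covered the 17262 probe sets whose signal was over the 40th percentile on 2 arrays or more. On Col-0 IAA 30 min replicate 2, 1973 probe sets in 2 stretches (1700 and 273) held impossible values and were treated as missing; none is among the 7 genes. limma 3.58.1 (R 4.3.3) fitted 1 mean per group over 72 arrays, leaving 36 residual degrees of freedom, and eBayes was run with a trend on intensity. Moderated t and F tests were adjusted by Benjamini-Hochberg over all tested probe sets at 0.05, and the fit was tested on simulated data.

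The members and gene lists were chosen with earlier results of these data known. All 7 genes are named in every comparison. The rule for other genes allowed the 3 most alike per member. Per list it allowed up to 3 with the largest change at 3 h of ABA, and per other comparison up to 2 with the smallest adjusted p. Not all of these are named: PUB43, UBC16 and PUB25 have a single most alike gene, and some list genes that passed are left out. PUB22 and PUB24 at 3 h of ABA, the genes beside the threshold and the markers are named outside this rule, after their values were seen. Gene names come from the platform annotation (1 gene for 13513 probe sets, several for 503), updated through RefSeq. Replicate numbers are those of the labels. Same-numbered treated and mock arrays were counted as paired where their deviations from the group means had a correlation over 0.1 at each time. This held for BL in det2-1 (lowest 0.145), ABA (0.135), IAA (0.269), GA3 in Col-0 (0.273) and zeatin (0.317). The main tests were nevertheless unpaired for all treatments. Replicate number entered only in the alternative fit with the replicate block, which covered every set. Alternatives were 3 other scalings, 2 pseudocounts, no filter, no trend, the replicate block, only the sets used, and each array left out. A count over a wider group of gene symbols is not reported here.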

Additional observations from a re-analysis of the deposited data

How the results depend on the processing

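The number of the 7 genes called over the time course varied as follows. For IAA (1) it was 0 on the deposited scale, with quantile normalization and with only the sets used, and 2 with the replicate block. For zeatin (1) it was 0 on the deposited scale. For BL in Col-0 (0) it was 2 with array medians subtracted, 1 with quantile normalization or the 2% pseudocount and 2 with the replicate block, under which UBC18 passed at 3 h (adjusted p = 0.0103). For BL in det2-1 (2) it was 0 on the deposited scale and 1 with array medians subtracted, the 50% pseudocount, no filter, no intensity trend or only the sets used. The mock comparison of ga1-5 (3) gave 6 on the deposited scale, and that of det2-1 (1) gave 7, and 2 with the replicate block. Leaving out each array gave 0 to 2 for IAA, 0 to 1 for BL in Col-0, 0 to 2 for BL in det2-1, 2 to 3 for ga1-5 and 1 to 2 for det2-1; zeatin and MJ stayed at 1 and the other counts at 0. The median change at 3 h of ABA (0.90) was 1.01 with array medians subtracted, 0.99 with quantile normalization, 1.01 and 0.68 with the 2% and 50% pseudocounts and 0.74 to 1 without single arrays. Near 0, PUB19 under BL at 30 min in Col-0 (0.03) became -0.14 with array medians subtracted, -0.28 with quantile normalization, -0.28 without mock replicate 1 and -0.39 to 0.45 without a BL array, and PUB19 under IAA at 3 h (0.20) became -0.37 to 0.78 without an IAA array. UBC16 in ga1-5 (-0.31) was 0.90 on the deposited scale. On that scale UBC16 under zeatin at 1 h (adjusted p = 0.3) and PUB43 under MJ at 3 h (adjusted p = 0.0927) no longer passed, with changes of 1.15 and 0.87. Of the 17 single-gene calls, 13 were lost under at least 1 other scaling, pseudocount, filter, trend, block or choice of sets, 5 of them on the deposited scale alone. Of the 21 untested ABA values, 7 changed sign under an alternative, in 12 cases (10 with a left-out array); each was within 2 SE of 0, at 30 min or 1 h, in PUB43, UBC16, UBC18 or UBC30. These were first counted as reversals; the 2 SE criterion that no longer counts them was set after they were seen. UBC18 under BL in Col-0 was added to these results after its values were seen. The replicate block changed no other count. Causes were not tested. With 2 arrays a group and dim signals of PUB19 and PUB25, small changes of these genes may go undetected.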
